A study of Canis lupus familiaris with 33 samples.

Results

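Desmosome genes were examined in canine invasive urothelial carcinoma (iUC), as 9 named genes out of the 25096 genes in the analysed copy of the TMM-normalized table. The genes were taken by their symbols and were DSG1, DSG2, DSG3, DSC2, DSC3, PKP1, PKP3, JUP and PERP. All 9 were found, each in 1 row, and all 9 passed the filter on low values. RNA sequencing had been done on 29 iUC tumors and on 4 samples of normal bladder urothelium. Each tumor came from a different untreated dog of any breed, was of high grade and high epithelial cellularity by the study's account, and was taken by cystoscopic biopsy. The normal samples were the urothelial layer, dissected from the bladders of dogs euthanized for diseases outside the bladder. No further treatment or genotype is stated for either group, so whether the groups differed in these is unknown. The p-values here describe the spread between these samples.

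The desmosome is a button-like junction that ties the keratin filaments of one epithelial cell to those of its neighbour. Desmogleins (DSG) and desmocollins (DSC) are cadherins that span the gap between the cells. Plakoglobin (JUP) and the plakophilins (PKP) are armadillo proteins that bind the tails of these cadherins on the inside of the membrane, and desmoplakin (DSP) links that plaque to keratin. DSG2 and DSC2 are made in most epithelia that have desmosomes, whereas DSG1, DSG3 and DSC3 belong mainly to stratified epithelia such as skin and oral mucosa. PERP is a membrane protein that stratified epithelia need for stable desmosomes. DSP and PKP2 were not analysed here.

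Values are log2 normalized expression minus the median of the same gene over the 33 samples, so 0 is a gene's own middle sample and a difference of 1 is 2-fold. Levels of different genes cannot be ranked on this scale, because each gene has its own zero. A gene was called between tumor and normal when its adjusted p in limma was at most 0.05 and its change was at least 2-fold, with the adjustment made over 24471 tested genes.

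Samples labelled normal had far higher levels of stromal and muscle genes than the tumors. All 6 measured smooth muscle markers, all 5 fibroblast markers and all 3 nerve and Schwann cell markers were lower in tumors, with median log2 changes of -6.05, -3.03 and -6.51. The mean of the smooth muscle markers ran from 4.39 to 6.27 in the normals and from -1.39 to 3.26 in the tumors, so the groups did not overlap. Of the 6 measured epithelial markers, 4 were called higher in tumors, and their mean was -2.34 to -0.77 in normals against -1.46 to 0.78 in tumors. ACTG2, a smooth muscle actin, differed by -7.05, and CDH1, the E-cadherin of adherens junctions, by 2.15. Of 10 leukocyte markers 2 were higher and 1 was lower, and none of the 5 endothelial markers was called by limma. The normals also carried fewer genes at a shared lowest value, 755 to 1019 against 3699 to 8175 in tumors. The median log2 change over all tested genes was -0.84, and 45.8% of genes were called lower and 10.7% higher. Centring samples on 10 epithelial genes, a choice made after seeing the data, moved that median to -2.60. That centring shifts the log2 change of every gene by the same -1.76, since all 10 genes rose in tumors, so values near the threshold or near 0 on one scale can lose their call or turn their sign on the other. The value on that epithelial scale is given with the change of each of the 9 genes. In bulk tissue, fewer cells of a type and less RNA per cell cannot be told apart, and the part of tissue make-up in these differences was not tested beyond that scale.

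Of the 9 desmosome genes, 4 were higher in tumors, 1 was lower and 4 were not called, against a background of 10.7% higher and 45.8% lower over all genes. DSG2, PKP1, PKP3 and JUP were the genes that rose, and DSG1 fell. On the epithelial scale, where 0.327% of all genes were called higher and 81.3% lower, none of the 4 rises was called, and DSG1 and DSC3 were called lower. In 3 genes, DSG2, PKP3 and JUP, every tumor lay above every normal, a pattern seen in 7.63% of all genes. In DSG1 every tumor lay below every normal, as in 28.5% of all genes.

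**Figure D1:**
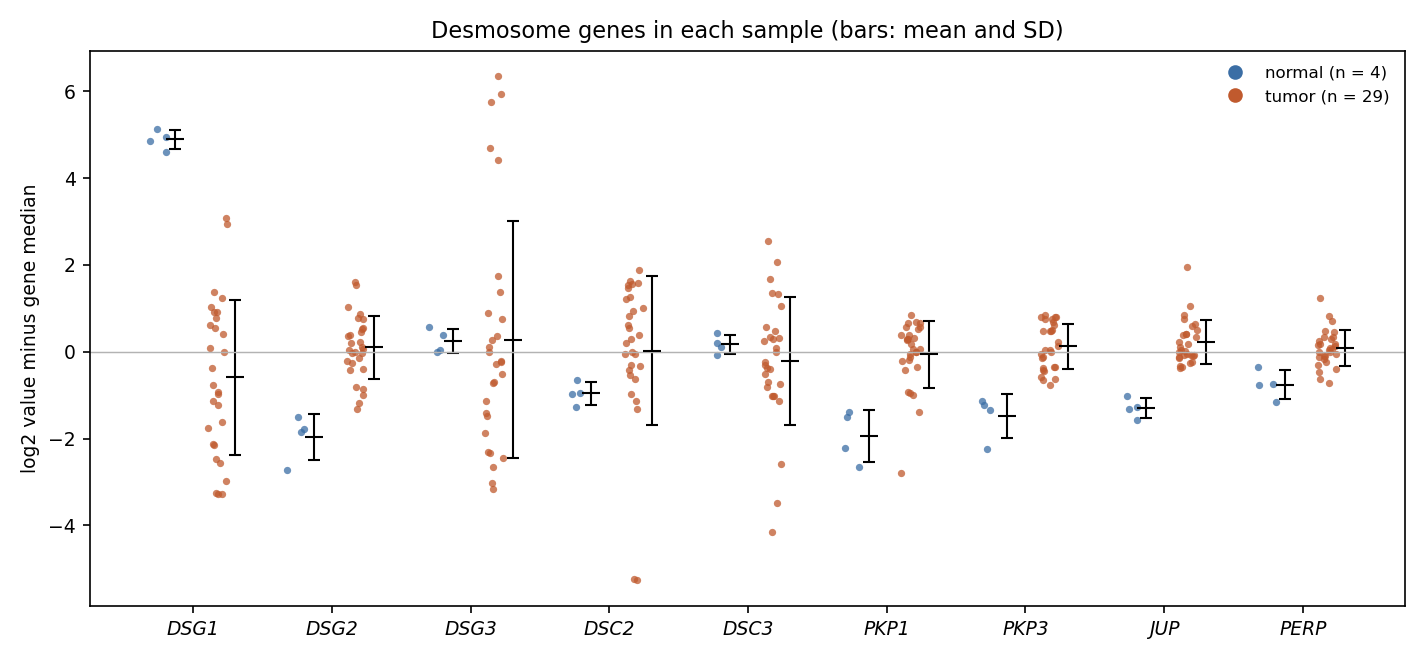
Log2 value minus the gene median (y axis) of the 9 desmosome genes in 4 normals (blue) and 29 tumors (orange), with the mean and SD beside each group. DSG1 is high in all normals, DSG2, PKP3 and JUP are low in all of them, and DSG3 spreads over 9.53 log2 units in tumors.

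DSG1, the desmoglein of upper layers of stratified epithelium, was at 5.14, 4.61, 4.87 and 4.95 in the 4 normals. Over the tumors it ran from -3.27 in tumor 22 through a median of -0.77 to 3.09 in tumor 21. Normals formed a tight group, and even the highest tumor was below the lowest normal. The mean fell by 5.47 on the log2 scale (SE 0.87, limma adjusted p = 1.36e-06). That difference was -7.24 on the epithelial scale (adjusted p = 6.08e-09) and -5.76 in the DESeq-normalized table.

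Tumor values of DSG1 lay close to the lowest values that the table holds. It was the 1 gene of the 9 with a shared lowest value, which 2 tumors (22 and 27) held. As a multiple of that lowest value, DSG1 was 236 to 339 in normals and 1 to 82.0 in tumors, with a tumor median of 5.64. In 16 of the 29 tumors it stood under 4 times that sample's commonest low step between values, which no normal did. That step may be worth about 1 read pair, which was not tested. Of 145 olfactory receptor genes, which encode odorant receptors of nose neurons, 144 were also called lower, with a median log2 change of -5.35, and 58 of them fell by more than DSG1. Over all tested genes, 3.16% fell by more than DSG1. Whether these falls have a common source was not tested.

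DSG4, a desmoglein of hair follicles that lies next to DSG1 and was not among the 9 genes, ran from 4.75 to 5.69 in normals and from -2.33 to 3.18 in tumors. Its mean differed by -5.19 (SE 0.67), a fall of a size like that of DSG1, again with no overlap of the groups. Falls of this size were also seen in nearby genes that are not desmogleins. KLHL14, CHST9 and AQP4 changed by -5.94, -5.63 and -6.32, and were at their shared lowest value in 10, 18 and 20 of the 29 tumors. Other nearby genes rose, such as GAREM1 by 1.32 and SS18 by 1.22.

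DSG2, the desmoglein of simple epithelia, was at -1.85, -1.50, -1.79 and -2.72 in the normals. Tumors ran from -1.31 in tumor 1 through 0.06 to 1.62 in tumor 23, all above every normal. The rise was 2.07 (SE 0.37, limma adjusted p = 9.77e-06), or 4.19-fold. On the epithelial scale the difference was 0.30 (SE 0.34, adjusted p = 0.396) and was not called.

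DSG3, the desmoglein of basal layers, was not called but had the widest spread of the 9 genes. Normals were at 0.57, 0.00, 0.04 and 0.38, and tumors ran from -3.17 in tumor 4 through -0.23 to 6.35 in tumor 11. Of the tumors, 9 were above every normal, 16 were below every normal and 4 were between. The difference of means was 0.04 (SE 1.33, limma adjusted p = 0.982), and the tumor SD of 2.72 exceeded that of 99.5% of tested genes. Tumors 11, 15, 20, 21 and 25, at 6.35, 5.94, 5.75, 4.42 and 4.69, were separated from the other 24 by a gap of 2.66, which was 27.96% of the range. The sign of its mean difference is not fixed, being -0.26 in the DESeq-normalized table and -1.73 on the epithelial scale, with no call in either.

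DSC2, the desmocollin of most epithelia, was at -0.64, -1.28, -0.97 and -0.95 in normals. Tumors ran from -5.27 in tumor 12 through 0.29 to 1.89 in tumor 11. Most tumors (24 of 29) were above every normal, but tumors 4 and 12, at -5.25 and -5.27, were far below all other samples, across a gap of 3.94 or 55.0% of the range. The difference of means was 0.99 (SE 0.84, limma adjusted p = 0.295) and was -0.78 on the epithelial scale, with no call.

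DSC3, the desmocollin of basal layers in stratified epithelia, was at 0.11, 0.44, 0.21 and -0.08 in normals. Tumors ran from -4.15 in tumor 4 through -0.23 to 2.54 in tumor 11, with 8 above every normal, 15 below and 6 between. Its mean differed by -0.38 (SE 0.72, limma adjusted p = 0.647), which was -2.14 on the epithelial scale (adjusted p = 0.00905), past the threshold there as were 81.3% of all genes, and above that scale's median of -2.60.

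Both plakophilins were higher in tumors. PKP1, a plakophilin of stratified epithelia, was at -1.50, -1.38, -2.66 and -2.22 in normals and ran from -2.80 in tumor 16 through 0.07 to 0.84 in tumor 7. Tumor 16 was below every normal and 27 tumors were above every normal. The rise was 1.88 (SE 0.40, limma adjusted p = 8.74e-05), and the difference was 0.12 on the epithelial scale (adjusted p = 0.739).

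PKP3, the most widely made plakophilin of epithelia, was at -1.14, -1.22, -1.34 and -2.23 in normals. It ran from -0.75 in tumor 22 through 0.05 to 0.84 in tumor 8, with every tumor above every normal. The rise was 1.61 (SE 0.28, limma adjusted p = 5.46e-06), and the difference with the same shift of all genes was -0.16 on the epithelial scale (adjusted p = 0.545).

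JUP, which serves adherens junctions as well as desmosomes, was at -1.32, -1.01, -1.26 and -1.58 in normals. Tumors ran from -0.37 in tumor 23 through 0.04 to 1.95 in tumor 18, and every tumor was above every normal. The rise was 1.51 (SE 0.26, limma adjusted p = 4.49e-06), and the difference was -0.25 on the epithelial scale (adjusted p = 0.307).

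PERP was at -0.75, -0.35, -0.78 and -1.16 in normals and ran from -0.72 in tumor 16 through 0.06 to 1.23 in tumor 11. In 25 tumors it was above every normal and in none below. The difference of 0.84 (SE 0.22, limma adjusted p = 0.00117) passed the p threshold but not the 2-fold limit, and with no fold limit 22.9% of all genes were higher. On the epithelial scale the difference was -0.92 (adjusted p = 0.000332), also under 2-fold, with the sign turned by the shift that all genes share.

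**Figure D2:**
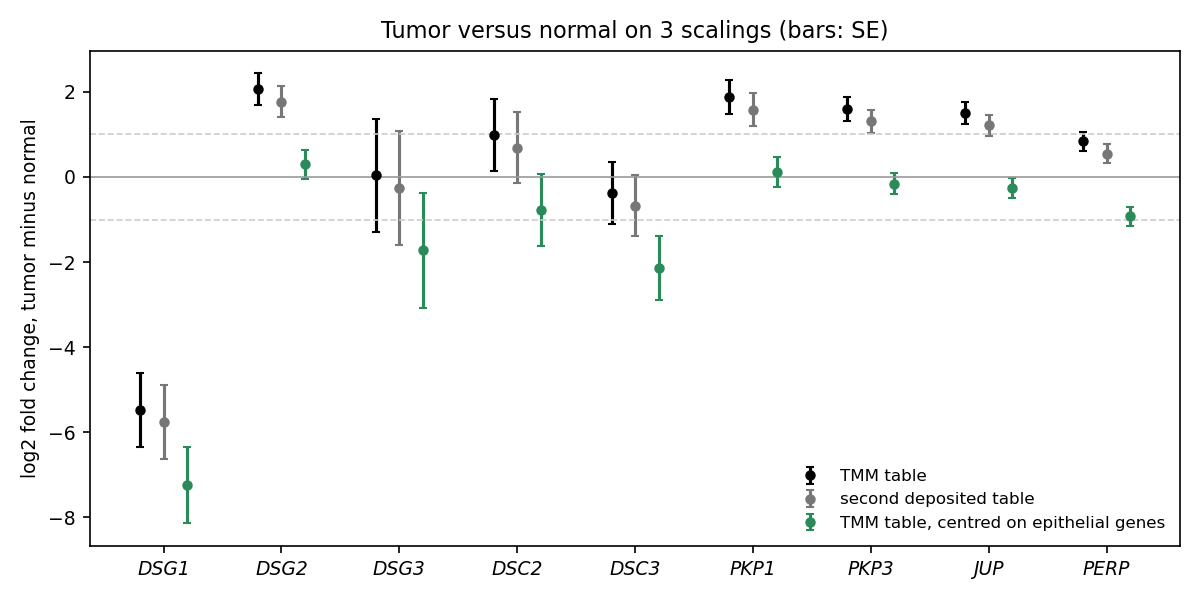
Log2 fold change of tumor minus normal (y axis) with its SE for the 9 genes in the TMM-normalized table (black), the second deposited table, normalized by DESeq (grey), and the TMM-normalized table centred on epithelial genes (green), with dashed lines at 2-fold. The rises of DSG2, PKP1, PKP3 and JUP of 1.51 to 2.07 stand near 0 on the green scale, where DSG1 stands at -7.24.

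The DESeq-normalized table, whose median over all genes was -1.11, gave the same calls for all 9 genes. Relative to the median of all genes, the TMM-normalized change was 2.91 for DSG2, 2.72 for PKP1, 2.45 for PKP3, 2.35 for JUP, 1.83 for DSC2, 1.68 for PERP, 0.88 for DSG3, 0.46 for DSC3 and -4.63 for DSG1. That median depends on the filter, being -0.01 among genes above the lowest value in at least 17 samples, where the relative changes equal the plain ones to within 0.01.

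Differences between related genes within a sample cancel the scaling of that sample. An exception is a gene at its shared lowest value, as DSG1 was in tumors 22 and 27. Of these differences, 4 were tested by exact two-sided permutation of the 33 samples, with Benjamini-Hochberg adjustment over the 4. DSG1 minus DSG2 was 6.12 to 7.67 in normals, and -4.14 to 3.93 in tumors with a median of -1.12. Every tumor was below every normal, and the mean change of -7.54 had an exact permutation p of 2.44e-05 (adjusted p = 9.78e-05), the smallest that the 40920 arrangements allow. DSG1 minus DSG2 thus differed between the groups by more than the spread between samples. Tumor values of DSG1 lay close to its lowest value, under 4 low steps in 16 of the 29 tumors. Of 145 olfactory receptor genes, 144 were also called lower, with a median of -5.35, so a fall of that size was not particular to DSG1.

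DSC3 minus DSC2 was 0.76 to 1.72 in normals and -2.15 to 1.79 in tumors, with a median of -0.37. In 25 tumors it was below every normal and in 1 above. The mean change was -1.36 (exact permutation p = 0.0171, adjusted p = 0.0342), but it did not pass when the medians were compared (exact permutation test, adjusted p = 0.101). It also failed when normal replicate 2, 3 or 4 was left out, with exact permutation adjusted p-values of 0.145, 0.0827 and 0.0536.

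DSG3 minus DSG2 was 1.50 to 3.10 in normals and ran in tumors from -2.98 through -0.76 to 6.74. In 23 tumors it was below every normal and in 5 above, namely the tumors with the high DSG3 values. The mean change of -2.03 had an exact permutation p of 0.165 (adjusted p = 0.22). PKP1 minus PKP3 was -1.32 to 0.02 in normals and -2.43 to 0.99 in tumors, with a mean change of 0.28 (exact permutation p = 0.48, adjusted p = 0.48).

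**Figure D3:**
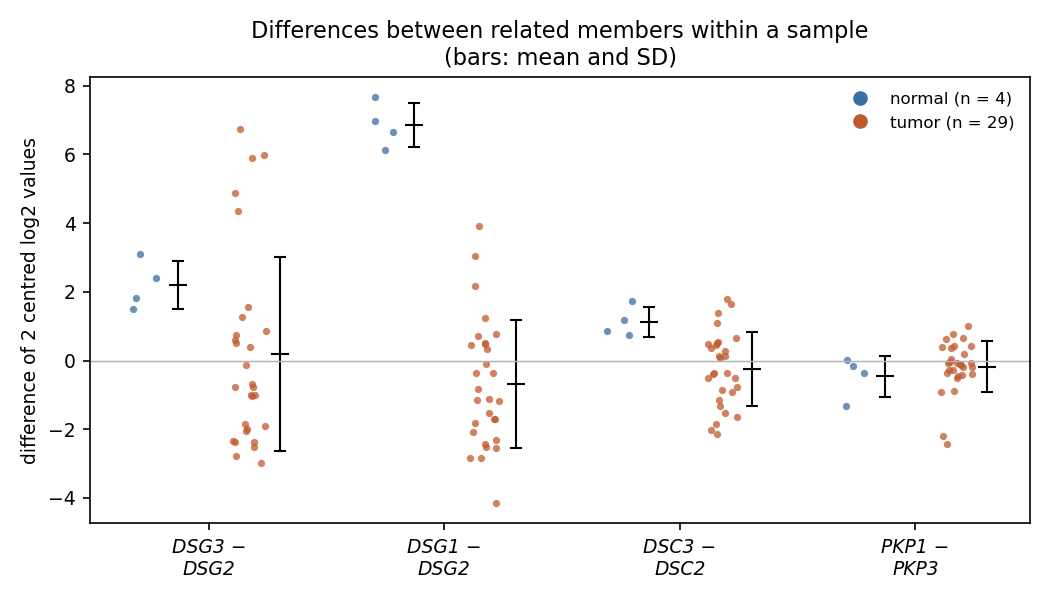
Difference of the centred log2 values of 2 related genes in the same sample (y axis) in 4 normals (blue) and 29 tumors (orange), with the mean and SD. DSG1 minus DSG2 is at least 6.12 in normals and at most 3.93 in tumors, whereas PKP1 minus PKP3 overlaps.

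The 9 genes differed in how much they varied among tumors. The tumor SD was 2.72 for DSG3, 1.79 for DSG1, 1.72 for DSC2 and 1.47 for DSC3, above the SDs of 99.5%, 96.7%, 96.0% and 92.6% of tested genes. It was 0.77 for PKP1 and 0.73 for DSG2, above 59.4% and 56.5% of genes, and 0.53, 0.50 and 0.42 for PKP3, JUP and PERP, above 39.3%, 37.1% and 26.9% of genes. The spread of DSC2 was carried by tumors 4 and 12, and without them its SD was 0.93, beside 1.12 for DSC3 and 0.79 for PKP1. Without the 5 tumors with high values the SD of DSG3 was 1.40.

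Single tumors carried several of the extremes. Tumor 11 was the highest of all tumors in 4 genes, DSG3, DSC2, DSC3 and PERP. Tumor 20 was among the 3 highest in DSG1, DSG3, DSC2 and DSC3, and among the 3 lowest in DSG2 and JUP. Tumor 4 was among the 3 lowest in all 5 cadherins, while its JUP, PKP1 and PKP3 were at 0.51, 0.33 and 0.61, above the median of each gene, and its PERP was at -0.11. Tumor 12 had DSC2, DSC3, DSG3 and DSG1 at -5.27, -3.48, -2.34 and -2.47, with DSG2 at 0.04. Its PKP3 at -0.63 was also among the 3 lowest, and its PKP1, JUP and PERP were at -0.01, 0.75 and -0.12. Tumor 16 was the lowest in PKP1 and PERP.

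The 5 tumors with high DSG3 were not alike in their other desmosome genes. Their DSC3 values were 2.54, 1.06, 2.08, 0.58 and 1.68 in tumors 11, 15, 20, 21 and 25, all above the tumor median of -0.23. DSG1 was at 0.93, -0.38, 2.94, 3.09 and 1.02 in the same order. PKP1 was at 0.28, -1.39, 0.51, 0.07 and 0.00, so tumor 15 joined a high DSG3 with a low PKP1.

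**Figure D4:**
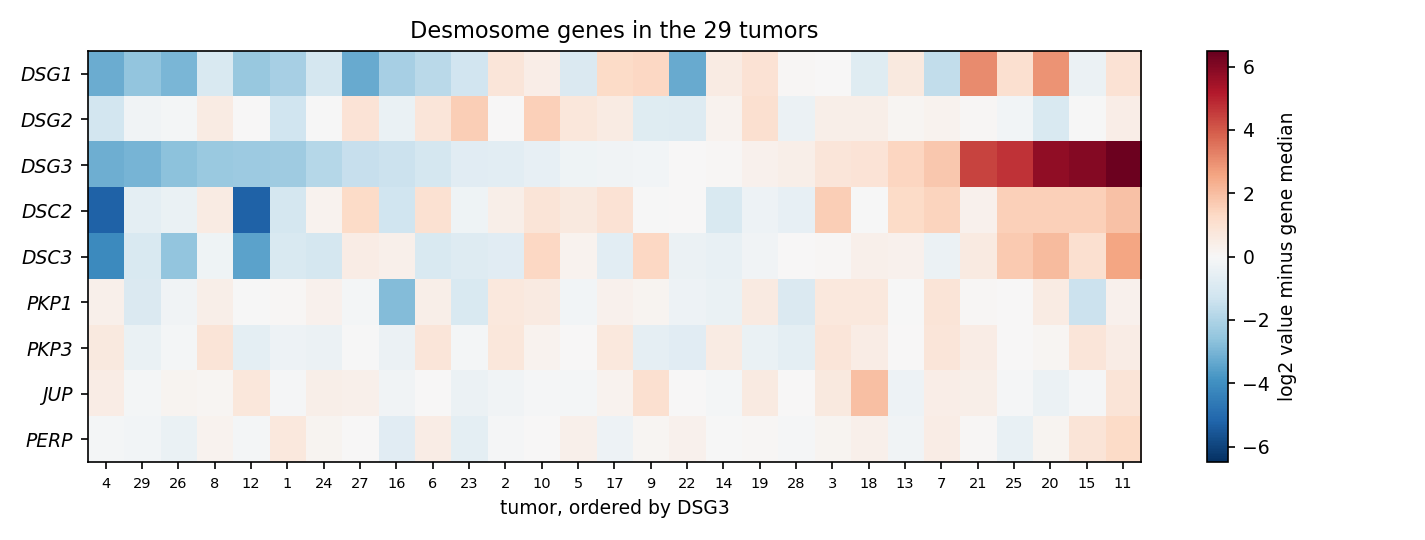
Log2 value minus the gene median (colour, blue low and red high) of the 9 desmosome genes (rows) in the 29 tumors (columns, ordered by DSG3). The 5 tumors on the right have DSG3 from 4.42 to 6.35, and tumors 4 and 12 have DSC2 near -5.25, while PKP3, JUP and PERP stay pale throughout.

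Co-variation among the 29 tumors was measured in all 36 pairs of the 9 genes, by Pearson's r and Spearman's rho with two-sided permutation p-values from 100000 resamples, and with an adjusted p from a limma fit of all genes on the first-named gene. Because the tumors fell into separate sets in DSG3 and DSC2, by a gap rule chosen after seeing the data, values for pairs with these genes are given within the larger set, of 24, 27 or, for DSG3 with DSC2, 22 tumors. By limma over all genes, 0 of the 36 pairs then passed an adjusted p of 0.05, against 8 pairs at an unadjusted permutation p of at most 0.05 for r and 9 for rho. With all 29 tumors in each pair, 2 pairs passed, DSG3 with DSC3 and DSC2 with DSC3, against 0.361% of all genes called in the fit on DSG3, 0.0125% in the fit on DSC2 and 0.0996% over the 8 fits. Their limma adjusted p-values were then 0.00422 and 0.00373, and rho was 0.73 and 0.59. DSG3 with DSC3 also passed without the 2 tumors farthest in DSG3 (limma adjusted p = 0.0216), whereas DSC2 with DSC3 did not (limma adjusted p = 0.48). Neither passed on ranks, with limma adjusted p-values of 0.428 and 0.832, or within the larger sets, whose values follow. Signs were mostly alike, with r above 0 in 33 of 36 pairs and a median r of 0.27. How common an r above 0 is among all genes differs by gene. The r of 0.00 between DSG1 and JUP ranked 13966 of 24088 genes by r with DSG1, and 9063 by r with JUP.

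DSG1 with DSC3 had an r of 0.63 over 29 tumors (permutation p = 0.00017, rho 0.60, permutation p = 0.00063, limma adjusted p = 0.221). Leaving out tumors 20 and 21, the 2 tumors farthest from the DSG1 median, gave 0.60. These 2 tumors lie 1.57 above the next in DSG1, or 24.7% of its range, just under the 25% gap that was used to set tumors apart. Without tumors 4 and 12 the r of DSG1 with DSC3 was 0.57. DSG3 with DSC3 had an r of 0.61 over 24 tumors (permutation p = 0.00101, rho 0.57, permutation p = 0.00432, limma adjusted p = 1), and 0.52 without the 2 farthest. DSG1 with DSG3 had an r of 0.59 over 24 tumors (permutation p = 0.00283, rho 0.59, permutation p = 0.00286, limma adjusted p = 0.881), and 0.61 without the 2 farthest.

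Within the 27 tumors left without tumors 4 and 12, DSC2 had its highest r with PKP3, DSC3 and PKP1, leaving aside DSG3. That gene was compared with DSC2 over 22 tumors only, with an r of 0.41, and has no place in this order. The order depends on that choice, since over all 29 tumors its rho was 0.63 with DSG3, 0.59 with DSC3, 0.55 with PKP3, 0.42 with DSG1, 0.40 with PERP and 0.34 with PKP1. Its r with PKP3 was 0.57 over 27 tumors (permutation p = 0.00249, rho 0.60, permutation p = 0.00137, limma adjusted p = 0.458), and 0.51 without the 2 farthest. The r of DSC2 with DSC3 was 0.53 over 27 tumors (permutation p = 0.00364, rho 0.49, permutation p = 0.0104, limma adjusted p = 0.48), and 0.58 without the 2 farthest. With PKP1 it was 0.46 (permutation p = 0.0121, rho 0.40, permutation p = 0.0374, limma adjusted p = 0.639), and ran from 0.31 without tumor 16 to 0.60 without tumor 15. None of these 3 relations passed the adjustment over all genes.

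Among the 6 pairs of DSG1, DSG3, DSC2 and DSC3 the median r was 0.56, and among the 6 pairs of PKP1, PKP3, JUP and PERP it was 0.34. In the 16 pairs that join a gene of the first set with a gene of the second the median was 0.19, with a range of -0.03 to 0.57. These sets were formed after the values were seen and are a description. PKP1 with JUP had an r of 0.41 (permutation p = 0.033, rho 0.43, permutation p = 0.0196, limma adjusted p = 0.438), and 0.41 without the 2 farthest. With the epithelial score described below regressed out, the r of PKP1 with JUP was 0.15. PKP1 with PKP3 had 0.38 (permutation p = 0.0365, rho 0.48, permutation p = 0.00819, limma adjusted p = 0.511), and 0.57 without the 2 farthest, but also 0.15 with the epithelial score regressed out.

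DSG2 had a median r of 0.15 over its 8 pairs, and no pair at a permutation p of 0.05 or less. Its r was 0.10 with DSG1 (permutation p = 0.595, rho 0.12, permutation p = 0.516) and 0.28 without the 2 farthest. With DSG3 it was 0.29 over 24 tumors (permutation p = 0.178, rho 0.23, permutation p = 0.283) and 0.24 without the 2 farthest. With DSC2 it was 0.24 over 27 tumors and with DSC3 0.17 over 29. The lowest values of the 36 were near 0: -0.07 for DSG2 with PERP, -0.03 for DSC3 with JUP, -0.02 for DSC3 with PKP1 and 0.00 for DSG1 with JUP, with permutation p-values of 0.727, 0.859, 0.931 and 0.992. Whether r differs between pairs was not tested.

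The 9 genes were then set against 5 scores over the tumors, each the mean z of a gene list with no desmosome gene among the 9, which gave 45 relations. The lists were basal keratinocyte genes (9 of 16 measured), luminal urothelial genes (13 of 15), stromal genes (11 of 17), leukocyte genes (10 of 11) and epithelial genes (10 of 12). Within the larger sets, 3 of the 45 passed an adjusted p of 0.05 in limma, against a background of 2.82% of gene tests over the 5 fits, and 14 had a permutation p of at most 0.05.

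DSC3 and DSG3 both followed the basal keratinocyte score with all 29 tumors, by limma adjusted p-values of 0.00645 and 0.00113. DSC3 had an r of 0.74 with it over 29 tumors (permutation p = 1e-05, the smallest the resamples allow, rho 0.83, permutation p = 1e-05, limma adjusted p = 0.00645). Of all genes, 0.228% were called in the fit on this score. Leaving out the 2 tumors with the most extreme scores gave an r of 0.65, with a limma adjusted p of 0.127, and the fit on ranks gave 0.172. DSG3 had an r of 0.66 with that score over 24 tumors (permutation p = 0.00045, rho 0.71, permutation p = 0.00016, limma adjusted p = 0.761), and 0.59 without the 2 farthest. Its rho with all 29 tumors was 0.82. The call of DSG3 with all 29 tumors was also lost in 3 of 6 alternatives, among them ranks and leaving out the 2 farthest. DSG1 had 0.60 over 29 tumors (permutation p = 0.00045, rho 0.66, permutation p = 0.00013, limma adjusted p = 0.0952), and 0.60 without the 2 farthest by score, but 0.51 without tumors 20 and 21, the highest in DSG1. With the share of genes at the lowest value regressed out it was 0.66 (limma adjusted p = 0.0425), past the threshold. DSC2 had 0.49 over 27 tumors (permutation p = 0.00822, rho 0.46, permutation p = 0.0165, limma adjusted p = 0.304), and 0.37 without the 2 farthest. The r of PERP, 0.47 (permutation p = 0.0114, rho 0.36, permutation p = 0.0512, limma adjusted p = 0.341), rested on tumor 11 and was 0.23 without it. DSG2 had 0.05 (permutation p = 0.81, rho 0.11, permutation p = 0.568).

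PKP1 followed the epithelial and stromal scores in opposite directions, in fits where 4.99% and 2.82% of all genes were called. Its r was 0.61 with the epithelial score (permutation p = 0.00044, rho 0.66, permutation p = 0.00017, limma adjusted p = 0.0187) and 0.67 without the 2 farthest, and it passed in the 5 alternatives that change this value. With the stromal score it was -0.57 (permutation p = 0.00109, rho -0.50, permutation p = 0.00693, limma adjusted p = 0.0383) and -0.46 without the 2 farthest, where the limma adjusted p was 0.201, against 0.149 on ranks. JUP had 0.52 with the epithelial score (permutation p = 0.00392, rho 0.58, permutation p = 0.00111, limma adjusted p = 0.0608), and 0.40 without tumor 18. The limma adjusted p of JUP was 0.0482 on ranks and 0.0454 with samples centred. PKP3 had 0.45 (permutation p = 0.0143, rho 0.42, permutation p = 0.0243, limma adjusted p = 0.117), and 0.43 without the 2 farthest. The tumors had been selected for high epithelial cellularity, and what remains of differences in the amount of epithelium cannot be told apart here from the level of a gene per epithelial cell.

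The luminal urothelial score gave 1 relation past the adjustment with all 29 tumors, that with DSG3 (limma adjusted p = 0.0321, rho -0.39, permutation p = 0.0398), in a fit where 2.52% of all genes were called. Within the larger set of 24 tumors the r of DSG3 with this score was 0.10 (permutation p = 0.633, rho 0.07, permutation p = 0.741), so that relation rests on the 5 tumors with high DSG3. None of the other 8 genes passed. The r was 0.38 for DSG2 (permutation p = 0.0405, rho 0.33, permutation p = 0.085, limma adjusted p = 0.263) and -0.40 for DSG1 (permutation p = 0.0314, rho -0.20, permutation p = 0.301, limma adjusted p = 0.234). It was -0.38 for DSC3 (permutation p = 0.0421, rho -0.38, permutation p = 0.0405, limma adjusted p = 0.256). DSC2 had -0.38 over 27 tumors (permutation p = 0.0479, rho -0.42, permutation p = 0.0311, limma adjusted p = 0.291), and -0.35 without the 2 farthest. For DSG2, DSG1 and DSC3, leaving out the 2 tumors with the most extreme scores gave 0.29, -0.03 and -0.24, so the value for DSG1 rests on those tumors. No gene passed against the leukocyte score, whose r ranged from -0.37 for JUP to 0.35 for DSC3.

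**Figure D5:**
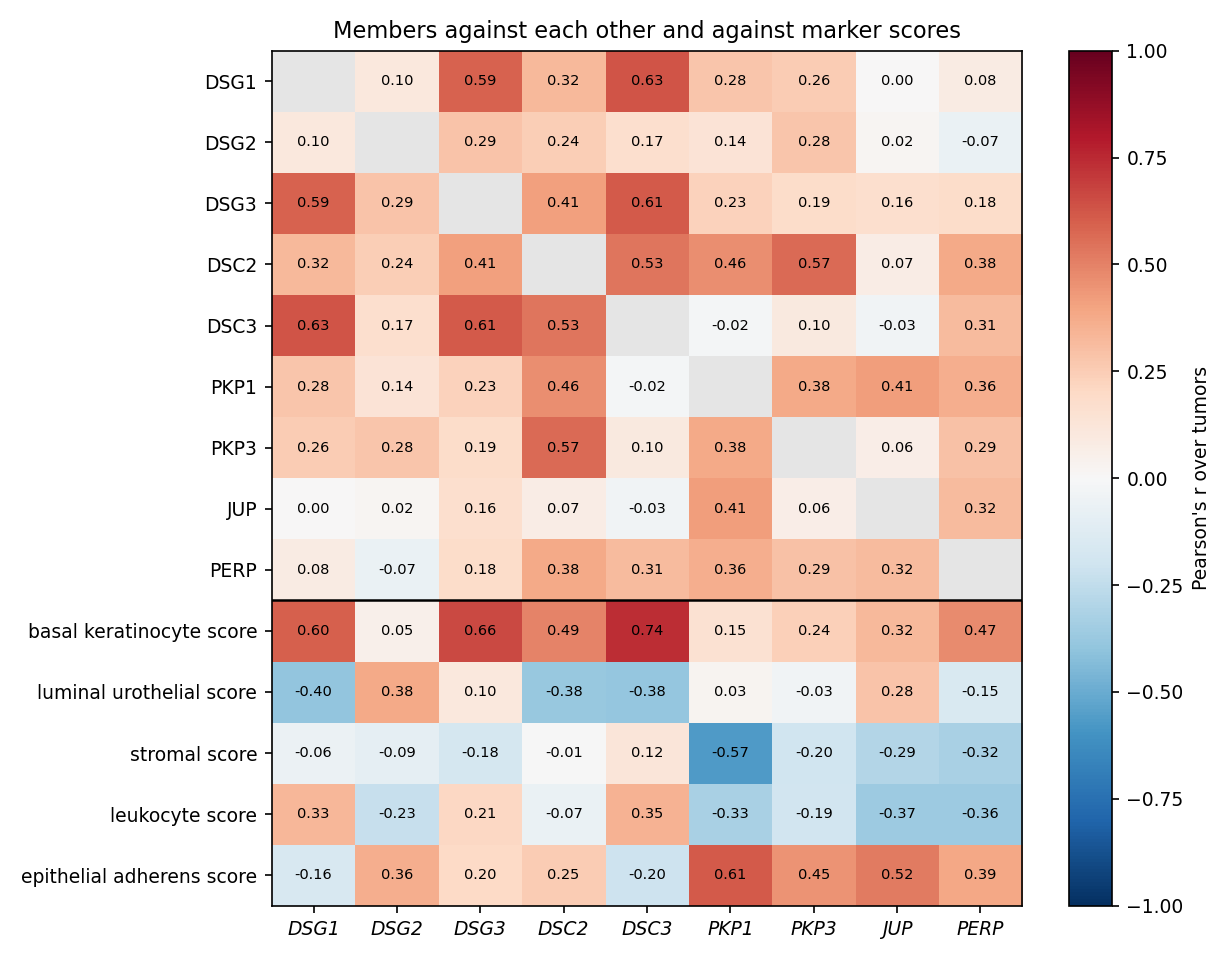
Pearson's r over tumors between the 9 genes (upper block, grey on the diagonal) and between each gene and 5 marker scores (lower block), within the larger set of tumors for DSG3 and DSC2. DSG1, DSG3, DSC2 and DSC3 have r from 0.32 to 0.63 with each other and 0.49 to 0.74 with the basal keratinocyte score.

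In the gene order of the RefSeq annotation of the UU_Cfam_GSD assembly, which is not the build of the files, all 5 cadherins lie in 1 cluster in the order DSG2, DSG3, DSG4, DSG1, DSC1, DSC2 and DSC3. DSC1 was not analysed here. Adjacent genes did not share 1 pattern over the 29 tumors. Within the cluster the r with DSC3 was 0.63 for DSG1, 0.61 for DSG3 over 24 tumors and 0.53 for DSC2 over 27, but 0.23 for DSG4 and 0.17 for DSG2. Among the neighbouring genes compared outside it, the r with DSC3 over 29 tumors ran from -0.52 for TAF4B, 11 after DSG2, to 0.57 for RNF125, a ubiquitin ligase 4 before DSG2, and was -0.03 for TRAPPC8, a trafficking gene 3 before DSG2. Without tumors 4 and 12 the r was -0.26 for TAF4B and 0.57 for RNF125, and the lowest was -0.41 for B4GALT6. Within the cluster the r for DSG2 was then -0.03. In tumor 4, DSG4 at -2.33 was the lowest of the 29 tumors, DSG2 at -1.18 and B4GALT6 (2 before DSG2) at -2.32 were second from the lowest, and RNF138 (5 before) at -0.85 was among the 3 lowest. TRAPPC8 at 0.16 and SS18, a chromatin gene 13 after DSG2, at 0.25 were above their medians in tumor 4, and TAF4B at 2.07 was the highest of the 29 tumors there. In tumor 12 the values of DSG4, DSG2, B4GALT6, RNF138, TRAPPC8 and SS18 were 1.18, 0.04, -0.40, 0.25, 0.14 and 0.37. CDH2, the N-cadherin gene next to DSC3, was at its shared lowest value of -2.69 in tumors 4 and 12, as in 5 of 29 tumors in all. ASXL3 and KLHL14, 10 and 8 before DSG2, were also at their shared lowest value in both tumors, as in 6 and 10 tumors in all.

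For each gene, the 3 genes with the highest r over the 29 tumors were taken from 10954 named genes, as a description of likeness. The 9 desmosome genes were left out of this ranking, and some of their values with each other are as high as those that follow. Of the ranked genes, DSG1 was most like PHYHIP, KRT13 and TCF23, with r of 0.74, 0.68 and 0.66, and KRT13 is a keratin of mucosal stratified epithelia. DSC3 was most like ADAMTSL5, C1orf21 and SERPINB5, with r of 0.77, 0.76 and 0.74, and SERPINB5 (maspin) is also in the basal keratinocyte list. DSG2 was most like TMUB1, ZNF282 and MAX, with r of 0.80, 0.72 and 0.71.

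DSG3 was most like CHSY1, CD44 and AGPAT4. Their rho over 29 tumors was 0.71, 0.75 and 0.73, and their r within the larger set of 24 tumors was 0.51, 0.55 and 0.55. DSC2 was most like POLR3G, FREM1 and DGKE, again with the desmosome genes left out, with rho of 0.66, 0.60 and 0.65 over 29 tumors and r of 0.55, 0.52 and 0.51 over 27.

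PKP1 was most like LAD1, ZC3H18 and DVL1, with r of 0.76, 0.72 and 0.69, and LAD1 (ladinin) is a protein of the epithelial basement membrane zone. PKP3 was most like RNH1, PHRF1 and EPHA2, with r of 0.79, 0.74 and 0.73. RNH1 and PHRF1 lie 5 and 11 genes from PKP3 in the reference order, on its chromosome. JUP was most like SLC46A1, ABR and EXOC7, with r of 0.80, 0.76 and 0.75 but rho of 0.47, 0.55 and 0.57, and all 3 lie on the chromosome of JUP, at least 285 genes away. PERP was most like PPP1CB, EZR and ITPKC, with r of 0.72, 0.71 and 0.70, of which EZR (ezrin) and ITPKC share its chromosome. In all, 7 of the 25 genes that could be placed in the reference order were on the chromosome of their desmosome gene.

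Other junction genes and the lists after them give the setting of these changes, all on the TMM scale. Over all genes the median was -0.84, with 10.7% called higher and 45.8% lower. On the epithelial scale each of these changes shifts by the same -1.76. Of 10 measured tight junction genes, 9 rose and none fell, with a median log2 change of 1.70. CLDN3, CLDN7, OCLN and TJP3 rose by 3.59, 2.37, 1.81 and 1.79, and TJP1 at 0.54 was not called. Of 9 adherens junction genes 6 rose and 1 fell, with a median of 1.15. CDH1, CTNNB1 (beta-catenin) and NECTIN2 rose by 2.15, 1.96 and 1.70, VCL (vinculin, abundant in muscle) fell by 1.88, and NECTIN1 and CDH3 at -0.64 and 0.36 were not called. Of 6 hemidesmosome genes 4 rose and none fell, with a median of 1.53. LAMB3, LAMA3 and PLEC rose by 2.38, 1.90 and 1.86, and DST and CD151 at -0.80 and 0.55 were not called. The rises of DSG2, PKP1, PKP3 and JUP were of the size seen in these lists.

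Of 6 measured genes linked to the desmosome or its plaque, EVPL (envoplakin) and PPL (periplakin) rose by 2.02 and 1.36. DSG4, VIM (vimentin, a filament of mesenchymal cells) and CDSN (corneodesmosin) fell, with changes of -5.19, -3.11 and -2.72, and KAZN at -0.81 was not called. CDSN was above every normal in 4 tumors and below in 24.

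Genes of cornified envelopes were measured in 10 of 20 cases, and 1 rose and 4 fell, with a median of -0.74. These shares and that median are close to those of all genes, of which 10.7% rose and 45.8% fell with a median of -0.84. SPINK5 and KLK5, an inhibitor and a protease of skin shedding, fell, with changes of -5.68 and -5.31. KLK5 was at its shared lowest value in 23 of the 29 tumors, so the size of its fall depends on that value. SPINK5 was at its shared lowest value in 4 tumors, and at 7.56 tumor 20 was above every normal. CRNN and TGM3 also fell, at -3.21 and -3.04, and TGM1 rose by 1.76. KRT10 and KRT13 at -0.78 and -0.70 were not called, although KRT13 ran from -2.98 to 8.65 in tumors. Of 9 basal keratinocyte genes S100A2 rose by 2.91 and SERPINB5 fell by 1.51, with a median of 0.36. KRT14 and GJB2 at 1.47 and -1.19 were not called, with KRT14 between -2.83 and 9.54 in tumors. TP63 was not analysed here.

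Of 13 luminal urothelial genes 9 rose and 1 fell, with a median of 1.16. ELF3, ERBB3 and UPK3A rose by 2.27, 2.24 and 1.85, KRT20 fell by 3.75, and GATA3 and UPK2 at 0.92 and 0.04 were not called. All 10 epithelial genes of the score rose, with a median of 1.56. Of 11 transcription factors that act on desmosome or epithelial genes, 5 rose and 2 fell, with a median of 0.87. OVOL1 and KLF5, epithelial factors, rose by 2.48 and 1.94, and ZEB1 and ZEB2, repressors of epithelial genes, fell, at -3.08 and -1.65. KRT10 was also the 1 measured gene of the 5 skin keratinocyte markers.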

How the data were processed

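After depletion of ribosomal RNA the authors sequenced all libraries in 1 batch, with paired reads, aligned these to CanFam3.1 with COBWeb in Strand NGS and normalized gene values by TMM and, separately, by DESeq. The deposited values are log2 normalized values minus each gene's median over 33 samples, read as such from both tables, so count models were not used, and the depth of each sample is unknown. The last, incomplete line of each table was left out. Genes whose lowest value is shared by samples were tested when 4 or more samples exceeded it, and all others were tested. With limma 3.58.1 (R 4.3.3, a variance trend in eBayes) and Benjamini-Hochberg adjustment, models compared 4 normals with 29 tumors, and fitted genes on each member or score among tumors. Permutation tests and correlations used Python 3.11.15 and scipy 1.17.1. Scripts were checked on simulated data. Members and lists were chosen with earlier results of these data known. Named genes were the members, their 3 most alike genes, and per list up to 4 called and 2 uncalled genes with the largest change, while PPL, TGM1 and the genes named around the cadherin cluster were chosen after their values were seen. Some genes that this rule names are not reported here. Alternatives were the authors' DESeq table, other filters, fits and scalings, and leaving out samples. Tumors are numbered in the order of their records.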

Additional observations from a re-analysis of the deposited data

How the results depend on the processing

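Calls for the 9 genes were the same in the DESeq table, in fits that dropped the variance trend or weighted the groups, with no filter or a filter at 17 samples, with samples centred, and without each normal in turn (4 members higher and 1 lower in each) or without tumors 14, 17 and 25. Centring on the epithelial genes, chosen after seeing the data, gave 0 members higher and 2 lower, with PKP3 at -0.16 and JUP at -0.25, and with no fold threshold 5 were higher. Over all genes, 2615 were higher and 11206 lower, against 1377 higher in the DESeq table, 5603 higher with no fold threshold, 5543 lower with the filter at 17 samples, and 80 higher and 19889 lower with epithelial centring. Leaving out 1 normal gave 2222 to 2695 higher and 10596 to 11067 lower. DSC3 minus DSC2 was -1.49 to -1.17 without 1 normal and -1.39 for medians. Medians and leaving out normal 2, 3 or 4 each lost the call, and the cause was not tested. DSG1 minus DSG2, DSG3 minus DSG2 and PKP1 minus PKP3 stayed on the same side of the threshold, the first past it and the others not, at -7.79 to -7.27, -2.27 to -1.73 and -0.01 to 0.44 without 1 normal.

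Of 36 pairs, 2 passed with all tumors, 0 on ranks, 1 without the 2 farthest tumors and 0 within the larger sets, a split chosen after seeing the data. Of 45 relations with scores, 5 passed with all tumors, 2 on ranks, 1 without the 2 farthest and 3 within the larger sets, where luminal score with DSG3 turned to 0.10. Of 522 recomputed correlations, 31 changed sign. DSG1 in tumors lies close to the lowest values of the table. No paired analysis was possible because normals and tumors are different dogs and the labels pair none of them, the replicate numbers used here being names only.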
